A study of Mus musculus with 8 samples.

Results

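The caspases Casp2, Casp6, Casp8 and Casp9, the caspase inhibitor Xiap, and the mitochondrial factors Cycs, Diablo and Htra2 were followed in sorted mouse primordial germ cells (the cells that later form the gametes) at embryonic day 11.5. These 8 genes were picked by name for their place in the apoptotic pathway, with earlier results of these data known. They came out of 21444 genes with a count, and all 8 passed the filter on low counts that left 10990 genes for testing. The 4 Prmt5 KO libraries came from Blimp1Cre;Prmt5flox/flox embryos and the 4 Control libraries from Blimp1Cre;Prmt5flox/+ embryos, on a C57BL/6 &129 mixed background. Both groups thus carried Cre under Blimp1, a gene switched on as germ cells are specified, at least 1 floxed copy of Prmt5, and the dPE_Oct4 GFP reporter by which the cells were sorted. Prmt5 encodes an arginine methyltransferase that acts on histones and splicing proteins. Nothing in the labels tells whether replicate libraries stem from different embryos or from a shared pool, and the p-values therefore reflect library-to-library spread that may be in part technical.

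Caspases are proteases that are made as inactive precursors and dismantle the cell once activated. Initiator caspases are switched on in large complexes: Casp8 beneath death receptors, Casp9 on the Apaf1 apoptosome and Casp2 on the PIDDosome. Executioners such as Casp6 then cut cellular proteins. Cytochrome c, encoded by Cycs, leaves the mitochondrion to nucleate the apoptosome, while Xiap binds and blocks active caspases. The proteins of Diablo (also called Smac) and Htra2 (also called Omi) leave with cytochrome c, and a short motif at the start of their mature forms displaces Xiap from caspases. Apoptosis is a known fate of primordial germ cells that stray or are damaged.

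The coding sequence around the residues that carry these activities is shown for the members whose results follow, read from the GENCODE M21 transcripts on GRCm38 and written 5′ to 3′ along the coding strand. They are the stretches that give the proteins their roles in the cascade. In the caspases the capitals mark the codon of the catalytic cysteine. In Cycs they mark the codons of both cysteines and the histidine that hold the heme. In Diablo and Htra2 they mark the 4 codons of the Xiap-binding motif.
Casp2 (chr6:42276764-42279781, plus strand, across the junction of exons 8 and 9): ttcatccaagcaTGTcgtggagatgag
Casp9 (chr4:141807241-141811543, plus strand, across the junction of exons 6 and 7): ttcatccaggccTGCggtggtgagcag
Casp8 (chr1:58844607-58844633, plus strand, exon 8): ttcattcaggctTGCcaaggaagtaac
Casp6 (chr3:129910690-129912135, plus strand, across the junction of exons 5 and 6): atcatccaggccTGTcggggtagccag
Cycs (chr6:50565598-50565624, minus strand, exon 2): cagaagTGTgcccagTGCCACactgtg
Diablo (chr5:123523255-123523278, minus strand, exon 2): ctgtgtGCGGTTCCTATTgctcag
Htra2 (chr6:83054010-83054033, minus strand, exon 1): ctggctGCTGTTCCTGCTccgcca
Each motif was found once in the reading frame of its gene. The Xiap-binding motif started at codon 54 of 237 in Diablo and at codon 134 of 458 in Htra2, behind the part that is cut off on import into the mitochondrion. The motifs of Diablo and Htra2 begin with codons for the same 3 residues.

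The libraries differed in depth and in how far they stood apart. The total of the gene counts ran from 4318972 to 6549504 in Prmt5 KO and from 1811428 to 5844441 in Control. Prmt5 KO 4 had the lowest mean correlation with the other libraries (0.848, across genes on the log2 scale, against 0.866 to 0.914 for the rest), with Prmt5 KO 1 next (0.866). Of all tested genes, 24.1% were at their lowest in Prmt5 KO 4 and 23.7% at their highest there. The targeted gene Prmt5 was at 39.9, 40.5, 35.3 and 26.4 CPM in Prmt5 KO and at 89.4, 171, 172 and 118 CPM in Control (CPM, counts scaled to a common library size after TMM normalization). Its log2 fold change was -1.95 (edgeR quasi-likelihood test, adjusted p = 0.0389), and it no longer passed when any 1 library was left out, Control 1 excepted, with adjusted p reaching 0.234. Prmt5 passed in DESeq2 (adjusted p = 9.68e-09) but not in limma voom (0.157). In edgeR it also failed with summed transcripts (0.0631) and with the replicate number as a block (0.13). Without Control 2 and 3, the libraries with the lowest totals, its log2 fold change was -1.54 (edgeR, adjusted p = 0.76). Of 11 markers of primordial germ cells all were tested and 0 were called (edgeR; 0 at an unadjusted p under 0.05, and 0 in DESeq2 or limma voom), led by Kit at 1060 ± 69.2 CPM in Prmt5 KO and 1010 ± 102 CPM in Control (SD, n = 4 each). Their summed level lay between 2880 and 3330 CPM in Prmt5 KO and between 2940 and 3280 CPM in Control. Of 11 somatic gonad markers 6 were tested, 0 were called in edgeR or DESeq2 and 3 had an unadjusted p under 0.05 in edgeR, all higher in Prmt5 KO. They summed to 651, 213, 195 and 170 CPM in Prmt5 KO and to 134, 175, 172 and 214 CPM in Control, so Prmt5 KO 1 was set apart. The 3 with such a p were Acta2, Col1a1 and Col1a2. In Prmt5 KO 1 they were at 208, 92.9 and 52.3 CPM, against Control means of 5.08, 3.23 and 3.85 CPM. In Prmt5 KO 2 they were at 2.71, 1.94 and 19.2 CPM, in Prmt5 KO 3 at 5.95, 2.53 and 1.79, and in Prmt5 KO 4 at 3.99, 1.74 and 1.5. The most abundant somatic marker, Mfge8, was at 167 ± 10.8 CPM in Prmt5 KO and 145 ± 27.2 CPM in Control (SD, n = 4 each). Endothelial markers summed to 296 to 395 CPM in Prmt5 KO and 279 to 360 CPM in Control, led by Pecam1, which germ cells also express, at 276 ± 46.2 CPM in Prmt5 KO and 283 ± 46.1 CPM in Control (SD, n = 4 each). Of 6 endothelial markers 3 were tested, with 0 called in edgeR, 1 in DESeq2 and 0 in limma voom. Tek, the 1 with an unadjusted p under 0.05 in edgeR, was at 72.4, 12.2, 53.7 and 71 CPM in Prmt5 KO and at 28.9, 4.46, 7.68 and 8.09 CPM in Control (log2 fold change 2.05, edgeR adjusted p = 0.409), while Kdr held 3 counts in all and Emcn 1. Blood and macrophage markers summed to 6.98 to 39.7 CPM in Prmt5 KO and 20.8 to 42.7 CPM in Control, with 1 marker tested and 0 called by any of the 3 tools. That was Csf1r, at 18.7, 39.3, 30.1 and 6.48 CPM in Prmt5 KO and at 20.6, 34.4, 37.3 and 42.7 CPM in Control (log2 fold change -0.51, edgeR adjusted p = 0.835), with exons that overlap Hmgxb3 on the opposite strand. Adgre1 held 58 counts in all, 51 of them in Prmt5 KO 1, and Ptprc held 1. The part of these cell types in the results was not tested.

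None of the 8 members passed an adjusted p of 0.05 in Prmt5 KO against Control by edgeR, and none did by DESeq2 or limma voom. Over all tested genes edgeR called 0.0273% (0.0182% higher and 0.0091% lower in Prmt5 KO), limma voom 0.0091% and DESeq2 1.02%. At an unadjusted p under 0.05, edgeR singled out 2 of the 8, Diablo and Casp8, both lower in Prmt5 KO, where 8.15% of all tested genes had such a p and 3.69% had one and were lower. Of the members 6 had a log2 fold change below 0 and 2 above it, with a median of -0.18, against a median of 0.03 over all tested genes, 47.3% of which were below 0. All 4 Prmt5 KO libraries lay below all 4 Control libraries for 1 member, Diablo, a pattern that 2.27% of tested genes showed. As the members were chosen with earlier results of these data known, these comparisons with all tested genes are description only. In these sorted bulk samples fewer cells that hold a transcript and less of it per cell cannot be told apart.

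**Figure D1:**
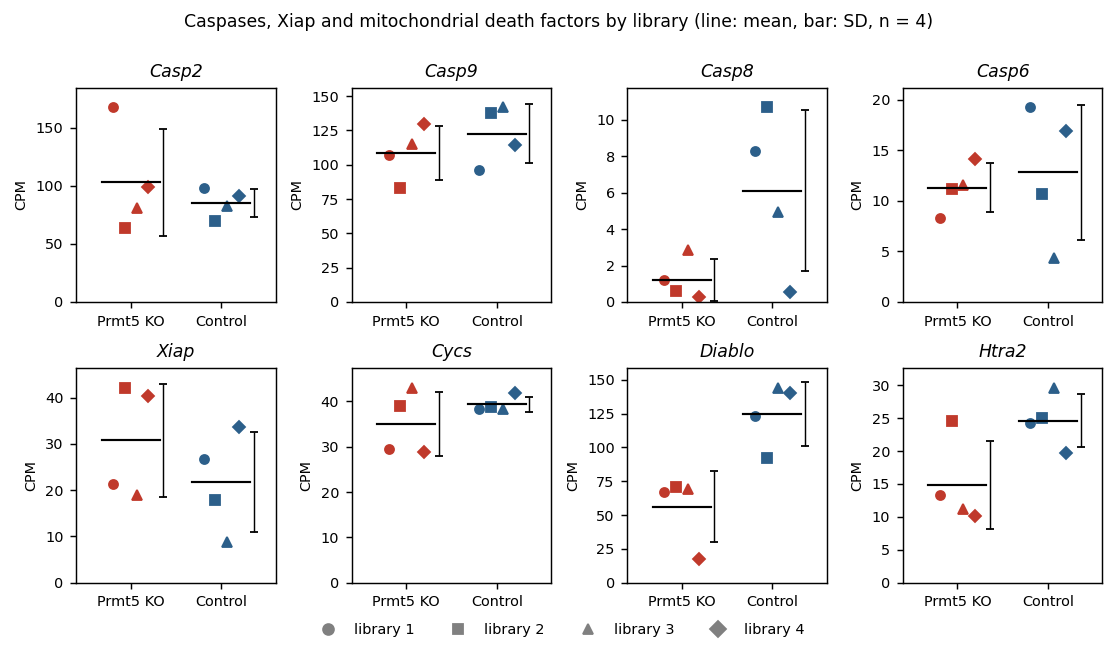
Level of each member in every library, in CPM on a linear axis from 0, with Prmt5 KO left of Control; marker shapes number the libraries within a group, horizontal lines are means and bars are SD over 4 libraries. The Prmt5 KO and Control points of Diablo do not overlap, and in every other panel they do.

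The initiator caspases Casp9 and Casp2 were among the most abundant members, and their levels overlapped between the genotypes. Casp9 (ENSMUSG00000028914, GRCm38 chromosome 4, 141793612 to 141815976, plus strand), the apoptosome caspase, was at 107, 82.7, 115 and 130 CPM in Prmt5 KO and at 96.3, 138, 142 and 114 CPM in Control. The groups overlapped over most of their range, with Prmt5 KO 2 the lowest library. Casp9 had a log2 fold change of -0.17 with a 95% interval from -0.63 to 0.29 (edgeR, adjusted p = 0.893), so a loss or gain of Casp9 RNA of 2-fold lay outside the interval. Exons of Casp9 share 94 bases with Cela2a and Ctrc on the opposite strand, which held 74 and 64 counts in all against 4136 for Casp9. Counts of the shorter coding transcript Casp9-202 were 0.875% ± 0.907 of those of Casp9-201 in Prmt5 KO and 1.88% ± 1.40 in Control (SD, n = 4 each).

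Casp2 (ENSMUSG00000029863, chromosome 6, 42264985 to 42282508, plus strand), the PIDDosome caspase, was at 168, 63.4, 81.1 and 99.4 CPM in Prmt5 KO and at 97.9, 70.1, 82.8 and 90.9 CPM in Control. Prmt5 KO 1 was the highest of the 8 libraries and Prmt5 KO 2 the lowest. Its fitted log2 fold change of 0.27 had a 95% interval from -0.35 to 0.89 (edgeR, adjusted p = 0.861). Without Prmt5 KO 1, the library with the high somatic markers, it was -0.07. All 9 counted Casp2 transcripts overlapped between the groups, and 1 of them was below its Control mean.

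Casp8 and Casp6 had the lowest counts of the members. Casp8 (ENSMUSG00000026029, chromosome 1, 58795374 to 58847503, plus strand), the caspase of death receptors, had 7, 3, 19 and 1 counts in Prmt5 KO and 49, 24, 9 and 3 in Control. In CPM this was 1.18, 0.581, 2.83 and 0.249 in Prmt5 KO and 8.28, 10.7, 4.94 and 0.528 in Control. All 4 Prmt5 KO libraries lay below 3 of the Control libraries, and Control 4 lay among them. For Casp8 the log2 fold change was -2.26, with a 95% interval from -4.26 to -0.26, unadjusted p = 0.0295 and adjusted p = 0.558 (edgeR). With 1 library left out it ran from -3.08 without Prmt5 KO 3 to -1.86 without Control 2, where the unadjusted p was 0.0885, and limma voom gave -1.75 with an unadjusted p of 0.15. The mean was 1.21 ± 1.15 CPM in Prmt5 KO and 6.12 ± 4.41 CPM in Control (SD, n = 4 each). Both counted Casp8 transcripts are coding, and they stood at 20% and 20.4% of their Control means. Their counts were nearly the same, so they are not independent of each other.

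Casp6 (ENSMUSG00000027997, chromosome 3, 129901425 to 129914103, plus strand), an executioner, was at 8.27, 11.2, 11.6 and 14.2 CPM in Prmt5 KO and at 19.3, 10.7, 4.39 and 16.9 CPM in Control. The Control libraries spanned both ends of the range, and the Prmt5 KO libraries lay within it. Casp6 had a log2 fold change of -0.20 with a 95% interval from -1.40 to 1.00 (edgeR, adjusted p = 0.968), which holds a fall to below 0.5 of Control, and without Control 1 the value was 0.07.

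Xiap (ENSMUSG00000025860, chromosome X, 42059679 to 42109656, plus strand) was at 21.4, 42.1, 19.0 and 40.4 CPM in Prmt5 KO and at 26.7, 17.9, 8.78 and 33.6 CPM in Control. Prmt5 KO 2 and Prmt5 KO 4 were above all Control libraries, and the other Prmt5 KO libraries lay among them. For Xiap the log2 fold change was 0.48, with a 95% interval from -0.52 to 1.48 (edgeR, adjusted p = 0.835), and it was 0.03 without Control 2 and 3, the libraries with the lowest totals. The value rested on transcript Xiap-204. Of 6 Xiap transcripts with at least 10 counts, the 5 that run to the 3′ end of the gene stood between 137.9% and 139.7% of their Control means and share nearly all their reads. The remaining one, the noncoding Xiap-206 from the 5′ end, stood at 95.8%. A processed pseudogene, Gm17791, matches 91.7% of the aligned Xiap coding bases and held no counts.

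Among the factors released from mitochondria, Diablo was the one member whose groups were separate. Diablo (ENSMUSG00000029433) lies on the minus strand of chromosome 5, from 123509765 to 123524176. It was at 67.4, 70.9, 69.3 and 17.2 CPM in Prmt5 KO and at 123, 92.0, 144 and 140 CPM in Control. In Prmt5 KO 1, 2 and 3 the level was nearly the same, and in Prmt5 KO 4 it was far lower. The mean was 56.2 ± 26.0 CPM in Prmt5 KO and 125 ± 23.7 CPM in Control (SD, n = 4 each), a fitted level of 0.452 of Control. The log2 fold change was -1.15 with a standard error of 0.366 and a 95% interval from -1.93 to -0.36, and it did not pass adjustment over all genes (edgeR, unadjusted p = 0.00783, adjusted p = 0.418; DESeq2 adjusted p = 0.0891). Without Prmt5 KO 4 the log2 fold change was -0.85 with a standard error of 0.216 (edgeR, adjusted p = 0.274), and without Prmt5 KO 1 and 4 it was -0.83 (adjusted p = 0.449). Over all alternatives it stayed below 0, between -1.28 and -0.83, with adjusted p from 0.0891 to 0.809.

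**Figure D2:**
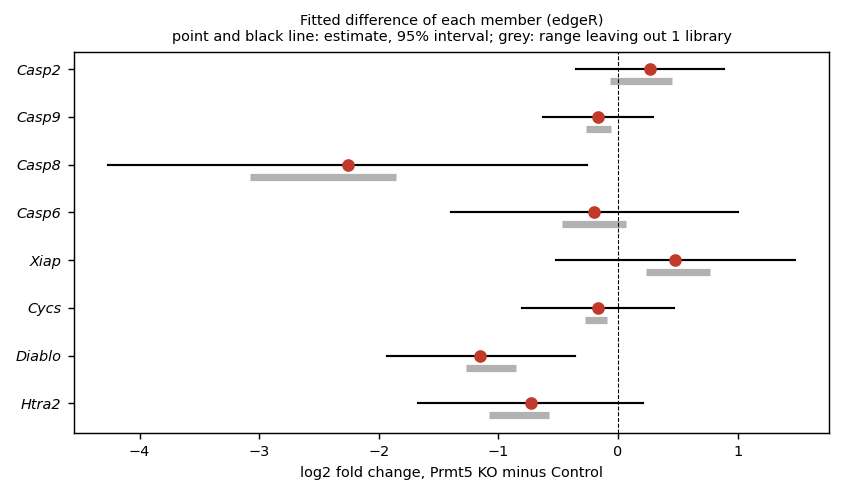
Fitted log2 fold change of each member, Prmt5 KO minus Control, with its 95% interval (black) and the range on leaving out 1 library at a time (grey). The intervals of Diablo (-1.93 to -0.36) and Casp8 (-4.26 to -0.26) lie below 0 before adjustment over all genes, and neither passed after it.

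The low Diablo level was seen in each of its transcripts. Of 9 annotated Diablo transcripts 8 had counts, and for all 8 every Prmt5 KO library lay below every Control library, with Prmt5 KO means between 36% and 45.9% of Control. These transcripts share exons and reads and are not independent of each other. The gene value came from Diablo-206, annotated as a target of nonsense-mediated decay, with 3290 counts in all; the coding Diablo-203, which shares most of its exons, had 3280. Exons of both overlap B3gnt4 and AC157931.1 on the opposite strand, and since the strand setting of the counting is unknown, those reads are uncertain. B3gnt4 held 127 counts in all and AC157931.1 held 271. In CPM of the plain library total, B3gnt4 was itself at 2.78, 1.98, 2.29 and 1.16 in Prmt5 KO and at 4.45, 6.12, 2.76 and 6.27 in Control.

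The coding transcripts Diablo-207 and Diablo-201 lie clear of both opposite-strand genes. Diablo-201 was at 10.6 ± 6.12 CPM of the plain library total in Prmt5 KO and at 28.1 ± 3.70 in Control (SD, n = 4 each). With Diablo-207 as the gene value the log2 fold change was -1.11 (edgeR, adjusted p = 0.528). Counts of Diablo-201 were 20.3%, 15%, 23% and 13% of those of Diablo-206 in Prmt5 KO and 24.1%, 25.7%, 19% and 22.3% in Control, so the shares overlapped between the groups. Gm49027, annotated on the same strand and sharing 1159 bases with Diablo-206, held no counts. Reads that fit several transcripts appear in each, so this lack of counts does not tell whether Gm49027 was expressed. Whether it was in the annotation used for the counting is not given.

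**Figure D3:**
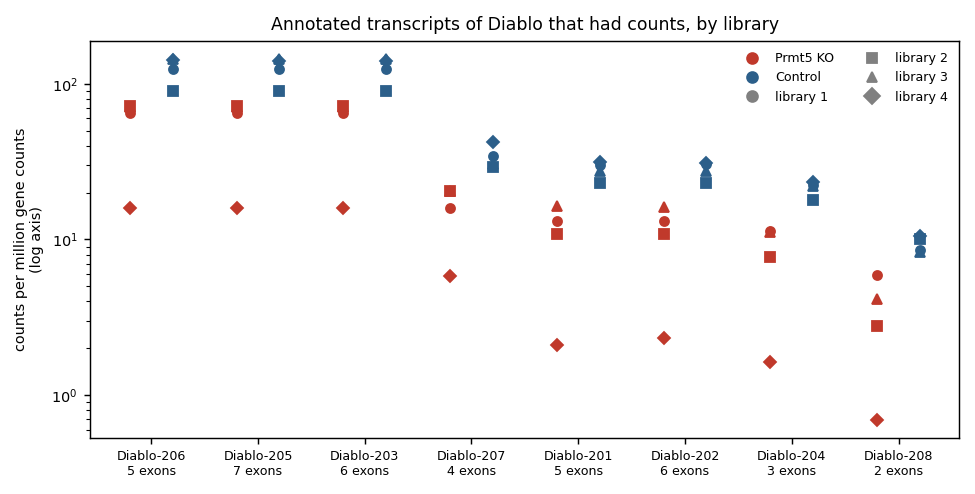
CPM of the plain library total on a log axis for the 8 counted Diablo transcripts, ordered by total count, with Prmt5 KO left of Control and marker shapes numbering the libraries. In each transcript all Prmt5 KO points lie under all Control points, and Prmt5 KO 4 is the lowest.

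The 3 tested genes whose profile over the 8 libraries was nearest to that of Diablo were Tubgcp6, Alg9 and Ing2. Tubgcp6 encodes a subunit of the gamma-tubulin ring, Alg9 a mannosyltransferase of the endoplasmic reticulum and Ing2 a reader of methylated histone H3. Their root mean square differences from Diablo, on centred log2(CPM + 1), were 0.228, 0.229 and 0.243. Of all tested genes 24.1% were at their lowest in Prmt5 KO 4. These 3 genes were low there too, at 3.49 CPM for Tubgcp6, 3.99 for Alg9 and 4.49 for Ing2. Their log2 fold changes were -1.11, -0.97 and -0.91, and none passed (edgeR, adjusted p = 0.595, 0.671 and 0.681). Since the 3 genes were chosen by this profile, its low library and its direction are shared by selection and are no separate result. Exons of Tubgcp6 and Alg9 overlap those of Selenoo and 1110032A03Rik on the opposite strand.

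Htra2 (ENSMUSG00000068329, minus strand of chromosome 6, 83051266 to 83055273), the protease that shares the Xiap-binding motif, was at 13.3, 24.6, 11.2 and 10.2 CPM in Prmt5 KO and at 24.2, 25, 29.6 and 19.7 CPM in Control. In Prmt5 KO 1, 3 and 4 it was below every Control library, and Prmt5 KO 2 lay among the Control libraries. The log2 fold change was -0.73 with a 95% interval from -1.67 to 0.21 (edgeR, adjusted p = 0.719), and with 1 library left out it ran from -1.08 without Prmt5 KO 2 to -0.58 without Prmt5 KO 4. The gene value came from Htra2-209, a transcript with a retained intron whose exons overlap Aup1 and Loxl3 on the opposite strand. Aup1 held 1499 counts in all, more than the 687 of Htra2. The coding Htra2-206 overlaps Loxl3 (158 counts) but not Aup1, and was at 12.2 ± 5.37 CPM of the plain library total in Prmt5 KO and 18.8 ± 2.45 in Control (SD, n = 4 each). All 9 counted Htra2 transcripts were below their Control means, at 51.3% to 65.0%. These transcripts share exons and reads, all overlap Loxl3, and are not independent of each other.

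Cycs (ENSMUSG00000063694, minus strand of chromosome 6, 50562563 to 50566538), the somatic cytochrome c, was at 29.4, 39.0, 43.0 and 28.9 CPM in Prmt5 KO and at 38.4, 38.8, 38.4 and 41.9 CPM in Control. Prmt5 KO 1 and Prmt5 KO 4 were below every Control library, and Prmt5 KO 3 was above all of them. Cycs had a log2 fold change of -0.17 with a 95% interval from -0.80 to 0.47 (edgeR, adjusted p = 0.941), and without Prmt5 KO 1 and 4 it was 0.06. Cycs has many copies in the genome: 18 other genes matched at least 50% of its coding bases at 85% identity or more, 16 of them pseudogenes, and Gm10053 was identical over all 315 coding bases. Gm10053 held 1 count and the pseudogenes 57 in all, against 1402 for Cycs, while Dennd5b, whose transcripts hold a stretch 90.1% identical to it, held 3240. How reads that match several copies were assigned is not given, so the Cycs level is uncertain.

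Levels between genes were compared per kilobase of the transcript used. In Control the order of the means was Diablo (75.0 ± 14.2 CPM per kilobase), Casp9 (31.4 ± 5.45), Casp2 (24.2 ± 3.38), Cycs (12.6 ± 0.537), Htra2 (9.80 ± 1.62), Casp6 (8.80 ± 4.58), Xiap (3.26 ± 1.62) and Casp8 (2.37 ± 1.71; SD, n = 4 each). Diablo stood clear of Casp9 there, with its lowest library at 55.3 and the highest of Casp9 at 36.3. Casp9 and Casp2 overlapped, as did Htra2 with Casp6, Casp6 with Xiap, and Xiap with Casp8, so those neighbours did not differ beyond their spread. In Prmt5 KO the order was Diablo (33.8 ± 15.7 CPM per kilobase), Casp2 (29.2 ± 12.9), Casp9 (27.8 ± 5.02), Cycs (11.2 ± 2.25), Casp6 (7.78 ± 1.67), Htra2 (5.90 ± 2.65), Xiap (4.61 ± 1.82) and Casp8 (0.468 ± 0.443; SD, n = 4 each). Diablo, Casp2 and Casp9 overlapped in Prmt5 KO, as did Cycs with Casp6, Casp6 with Htra2, and Htra2 with Xiap, while the highest Casp8 library (1.09) lay below the lowest of Xiap (2.86). The lowest Diablo library there (10.3) also lay within the range of Cycs (9.26 to 13.8). A method that copies RNA from its 3′ end makes such levels depend on how far the copies reach, so they are rough. With the median annotated length in place of that of the transcript used, all 8 levels were higher, and Diablo was again the highest in Control (167 CPM per kilobase) while Casp2 was the highest in Prmt5 KO (156).

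**Figure D4:**
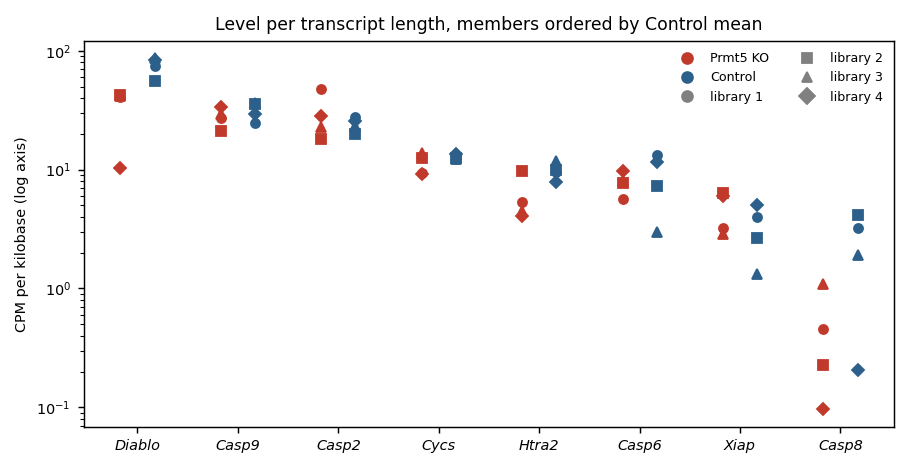
CPM per kilobase of the transcript used, on a log axis, for the 8 members ordered by their Control mean, with Prmt5 KO left of Control and marker shapes numbering the libraries. Diablo stands above the other members in Control and level with Casp9 and Casp2 in Prmt5 KO.

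The balance of the inhibitor and its antagonists was described within each library, with no test since the pairs were chosen with values known. The ratio of Xiap to Diablo, both in CPM per kilobase, was 0.0794, 0.148, 0.0685 and 0.585 in Prmt5 KO and 0.0542, 0.0484, 0.0152 and 0.0600 in Control. Every Prmt5 KO library was above every Control library, and Prmt5 KO 4, where Diablo was lowest, was far above the rest. The ratio of Xiap to Htra2 was 0.605, 0.644, 0.643 and 1.49 in Prmt5 KO and 0.416, 0.269, 0.112 and 0.642 in Control. Those groups overlapped, since Control 4 lay above Prmt5 KO 1. The ratio of Diablo to Cycs, which leave the mitochondrion together, was 4.31, 3.42, 3.03 and 1.12 in Prmt5 KO and 6.01, 4.45, 7.06 and 6.27 in Control. Here all Prmt5 KO libraries were below all Control libraries. The ratios with separate groups both hold Diablo, whose own levels were separate, so they restate that pattern and are no independent result. The ratio of Diablo to Htra2 was 7.63, 4.35, 9.39 and 2.54 in Prmt5 KO and 7.68, 5.56, 7.36 and 10.7 in Control, and those groups overlapped.

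The other genes of the pathway gave no call in edgeR. Of 53 such genes on 7 lists 50 had a count and 41 were tested, and 0 were called, against 0.0273% of all tested genes. An unadjusted p under 0.05 was seen for 3 (Apaf1, Eda2r and Birc5), where 8.15% of all tested genes had such a p in edgeR. DESeq2 called 1 of the pathway genes, Eda2r, and limma voom 0, against 1.02% and 0.0091% of all genes each tool tested. Among the tested pathway genes 19 had a log2 fold change above 0 and 22 below, and for 4 all Prmt5 KO libraries lay above all Control libraries, against 2.63% of all tested genes. For 0 of the pathway genes did all Prmt5 KO libraries lie below, against 2.27% of all tested genes. Against a median log2 fold change of 0.03 over all tested genes, the list of adaptors that assemble the initiator complexes had 0.66 over 6. The list of death receptors and related receptors had 0.49 over 3 tested genes. These medians rest on few genes, can shift with a single one, and were not tested.

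Apaf1, the scaffold that binds cytochrome c and Casp9, was at 41.4 ± 20.8 CPM in Prmt5 KO and 17.8 ± 8.55 CPM in Control (SD, n = 4 each; log2 fold change 1.19, edgeR adjusted p = 0.541), with groups that overlapped. Pidd1, the scaffold of the Casp2 complex, was at 23.1 ± 4.79 CPM in Prmt5 KO and 11.9 ± 6.18 CPM in Control (SD, n = 4 each). Its log2 fold change was 0.97 (edgeR adjusted p = 0.664). The groups barely separated, with Prmt5 KO 1 at 18.9 CPM and Control 3 at 18.7 CPM, the latter from 34 counts. Eda2r, on the list of death receptors and related receptors, was at 53.6 ± 14.9 CPM in Prmt5 KO and 11 ± 4.37 CPM in Control (SD, n = 4 each). Its log2 fold change was 2.29 (edgeR adjusted p = 0.121), and it passed in DESeq2 (adjusted p = 7.67e-06) and in edgeR with no filter (0.0279). Tnfrsf10b, a receptor that recruits Casp8, was at a log2 fold change of 0.49 (adjusted p = 0.756).

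Of 6 tested genes of the IAP family and its regulators 3 were above 0 and 3 below. Birc5, which encodes survivin and also serves chromosome segregation, was at 162 ± 34.1 CPM in Prmt5 KO and 107 ± 20.8 CPM in Control (SD, n = 4 each; log2 fold change 0.60, edgeR unadjusted p = 0.0147, adjusted p = 0.481), with no overlap between the groups. Birc6, a giant IAP that also binds the Diablo protein, was at -0.73 (adjusted p = 0.755). Among 11 tested genes of the intermembrane space and of release the median was -0.08. Bid, the BCL2 family member that Casp8 cuts, was at 89.3 ± 24.2 CPM in Prmt5 KO and 123 ± 14.9 CPM in Control (SD, n = 4 each; -0.46, adjusted p = 0.651), and Aifm2 at -1.19 (adjusted p = 0.672). Exons of Bid overlap those of Bcl2l13 on the opposite strand.

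The enzymes that mature the mitochondrial factors gave no call. Of 6 such genes 2 were above 0 and 4 below, with a median log2 fold change of -0.11. Pmpcb, a subunit of the presequence peptidase, was at 0.25 and Immp2l, of the inner membrane peptidase, at -0.74 (edgeR, adjusted p = 0.810 and 0.819). Of 8 tested caspase substrates and effectors 3 were above 0 and 5 below, with a median of -0.09. Gsdme, which forms pores once cut by a caspase, was at 2.98 ± 3.42 CPM in Prmt5 KO and 9.46 ± 3.17 CPM in Control (SD, n = 4 each; -1.64, edgeR adjusted p = 0.632), and Dffb, the nuclease of apoptotic DNA cleavage, was at 0.94 (adjusted p = 0.756). Dffb was at 48.6, 6.78, 8.78 and 17.9 CPM in Prmt5 KO and at 6.42, 12.5, 8.23 and 15.5 CPM in Control, so Prmt5 KO 1 stood far above the rest.

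**Figure D5:**
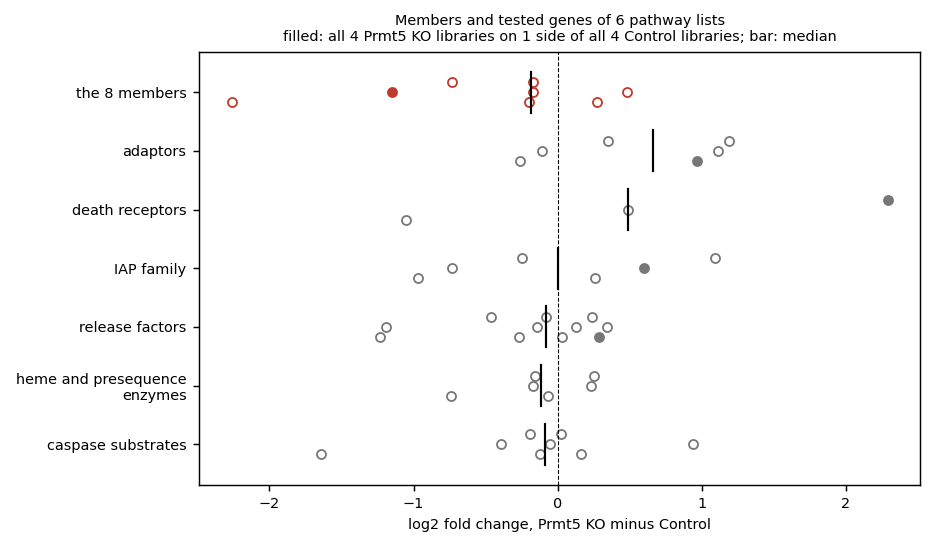
Log2 fold change, Prmt5 KO minus Control, of the 8 members and of the other tested pathway genes on 6 lists; bars are medians, and filled points mark genes whose 4 Prmt5 KO libraries all lie on 1 side of all 4 Control libraries. Diablo is the filled point among the members, and the filled points among the other genes, such as Eda2r at 2.29, lie above 0.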

How the data were processed

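RNA of sorted primordial germ cells was made into libraries from 50 pg each with a single-cell method, per the labels' protocols, and sequenced on SOLiD. The deposited files hold whole-number counts per transcript and omit any transcript without reads. Builds listed in the submitters' processing notes are GRCm38 and mm10. The sources used here do not name the aligner, the counter or the strand setting. Gene counts had been assumed in the design.

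Identifiers were matched to GENCODE M21 (64258 of 66262). Each gene took the counts of whichever of its transcripts had the largest sum across all libraries, since reads that fit several transcripts appear in each. Genes were kept by filterByExpr (minimum count 10, minimum total 15), scaled by TMM and tested with edgeR 4.0.16 (quasi-likelihood, robust; R 4.3.3), with Benjamini-Hochberg adjustment over all 10990 genes. Intervals of 95% used the standard error, the log2 fold change divided by the square root of F. DESeq2 1.42.0 and limma 3.58.1 were alternatives. Values of single transcripts and of B3gnt4 are CPM of the plain library total, without TMM. Near-identical copies were sought with BLAST.

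Named genes were the 8 members, Prmt5, the called genes of each list (at most 4) or the 2 with the smallest unadjusted p, the 3 nearest profiles and the most abundant marker of each cell type list. Acta2, Col1a1, Col1a2, Tek, Kdr, Emcn, Adgre1 and Ptprc were named after their values were seen. Members and lists were chosen with earlier results of these data known. Protein sequences were not used here. Some genes of the lists are not reported here.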

Additional observations from a re-analysis of the deposited data

Results flagged for a closer look

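A search for a library far from the other 3 of its group covered 44 sets of 4 values (the members, Prmt5 and the named pathway genes in each group) and singled out 2, where chance alone gives about 1 in 20, or 2.2. Diablo in Prmt5 KO 4 was at 17.2 CPM, against 67.4 to 70.9 CPM in the other Prmt5 KO libraries. Cycs in Control 4 was at 41.9 CPM, against 38.4 to 38.8 CPM in the other Control libraries, a small distance that stands out because those 3 lay close together.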

How the results depend on the processing

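Under 21 alternatives (scaling, tool, filter, robust estimation, replicate block, gene value and left-out libraries) 0 members were called. The fold changes of Casp8, Xiap, Diablo and Htra2 kept their sign throughout, and of 167 member values 5 reversed. Casp2 ran from -0.07 to 0.45 and Casp6 from -0.47 to 0.07 on leaving out 1 library, Casp2 was -0.24 and Cycs 0.06 without Prmt5 KO 1 and 4, and Casp9 was 0.05 without Control 2 and 3. The cause was not tested. Against 3 genes called in all as reported, there were 107 in DESeq2, 7 with no filter, 1 in limma voom, 1 with summed transcripts, 1 without Prmt5 KO 1 and 4, 0 without Control 2 and 3 (edgeR, 713 at an unadjusted p under 0.05), and 1 to 2 on leaving out 1 library. Pathway genes called were 1 in DESeq2 and 1 with no filter, Eda2r in both.

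With the replicate number as a block 1 gene was called, 0 members and 0 pathway genes. The correlation of same-numbered libraries, as deviations from their group means, was at most 0.073. Prmt5 KO 1, 2 and 4 each correlated best with the Control library of their own number, and Prmt5 KO 3 with Control 1. Whether a number marks a shared litter or batch cannot be told from such small values. Casp8 held 1 to 49 counts a library, so counting error is large there. The transcripts free of opposite-strand exons and the coding transcripts were alternatives chosen after seeing the data.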
